A study of Mus musculus with 2 samples.

Results

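Integrins, the hyaluronan receptor CD44 and the selectin ligand PSGL-1 are the surface molecules with which a T cell slows in a blood vessel, stops, leaves it and holds to a tissue. The 10 genes described here encode alpha subunits of integrins (Itgae, Itga4, Itgal, Itgav and Itgax), beta subunits (Itgb1, Itgb2 and Itgb7), CD44 (Cd44) and the protein core of PSGL-1 (Selplg). They were picked by gene name, and 9 of the 10 were in the deposited table of 4934 genes near STAT5 binding regions. Itgb7 was the member with no region. The 9 genes had 13 regions of the 5703 in the table.

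STAT5 binding was measured by ChIP-seq, which sequences the DNA that an antibody pulls down with its target protein. Each group had 1 library of effector CD8 T cells from C57BL/6 mice. One came from cells given IL-2 at 0.5 µg/ml for 1 hour, and the other, the control, from cells without IL-2. In both groups the cells were OT-I cells, whose transgenic T cell receptor reads an ovalbumin peptide, and per the labels they had been transferred into mice, primed there with that peptide and agonists of CD134 and CD137, and sorted from spleen 4 days later. The sources used here do not give the age of the mice or say whether cells of several mice were pooled. The antibody is labelled as anti-STAT5, and the labels name the assay as one for STAT5A. Binding does not measure expression, so the cell type was not checked by transcripts. Of 5 T cell genes looked up, 5 (Cd8a, Cd8b1, Cd3e, Cd3d and Cd3g) were in the table, beside 19.1% of all protein-coding genes. Being listed does not check the cell type either.

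An integrin is a pair of an alpha and a beta subunit that binds ligands on other cells or in the matrix once signals inside the cell have opened it. CD103, the alpha E subunit (Itgae), pairs with beta 7 and binds E-cadherin of epithelium. Alpha 4 pairs with beta 1 to bind VCAM-1 or with beta 7 to bind MAdCAM-1. Alpha L pairs with beta 2 to form LFA-1, which binds ICAM-1. IL-2 acts through a receptor whose JAK kinases phosphorylate STAT5, which then binds DNA as a dimer at sites of the form TTCNNNGAA, where N is any base.

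The table gives, for each gene, a mean peak height per library, averaged over its regions, its highest peak, and a call per library of whether an interval (a stretch of raised signal) was found there. Heights are signal in units the sources do not define, and neither their depth nor their counting error is known. Single libraries allow no replicate check, so IL-2 was not tested against control. The median gene of the table had a height of 20.75 in the IL-2 library (interquartile range 15 to 33) and 5 in the control library (4 to 5.8).

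A region was present near 9 of the 10 members, against 19.1% of 21896 protein-coding genes in the RefSeq table. The members are 14731 to 90529 bp long in RefSeq, and 22.5% of the 9147 protein-coding genes within that range of lengths were in the table. The members were chosen with earlier results of these data known, so these shares do not measure an enrichment. Every listed gene had an interval in the IL-2 library, so being listed already favours IL-2.

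**Figure D1:**
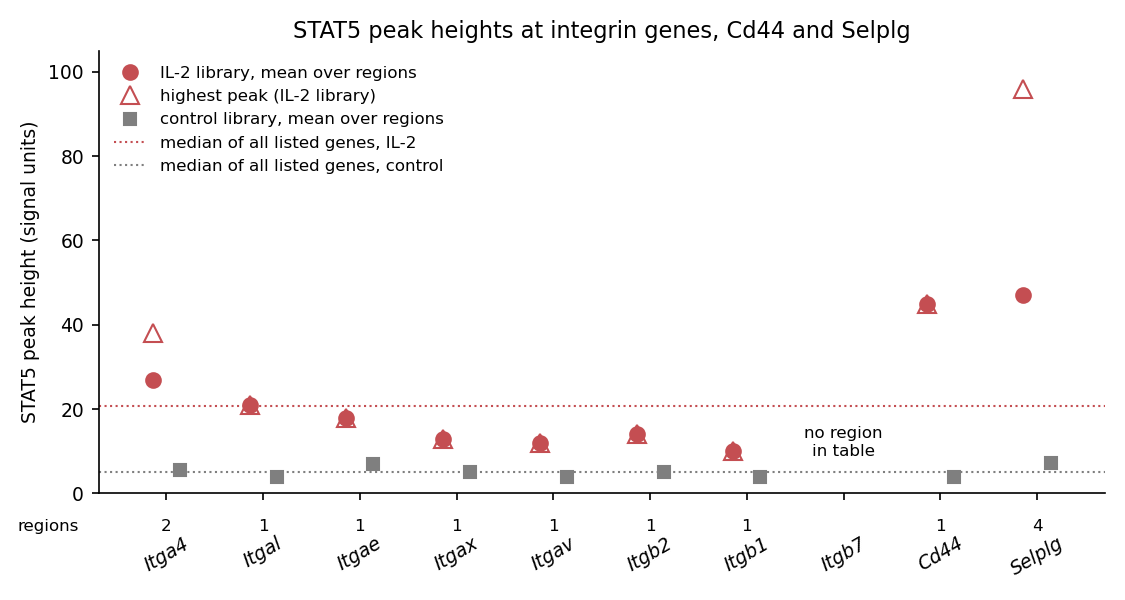
Mean STAT5 peak height over the regions of each gene in the IL-2 library (red circles) and the control library (grey squares), in signal units, with the highest peak as an open triangle and the number of regions under each gene. Selplg (47) and Cd44 (45) stand above the other members in the IL-2 library, and 6 of the 7 listed integrin genes lie at 21 or below, while control heights stay between 4 and 7.25. After both libraries were scaled to equal medians, Itgae, Itgax, Itgav, Itgb2 and Itgb1 were higher in control.

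The alpha subunits had heights spread around and below the median of the table. Itga4 had 2 regions with a mean of 27 in the IL-2 library and 5.5 in the control library, and a highest peak of 38. The mean and the highest peak fix the heights of the 2 regions in the IL-2 library at 38 and 16, but not which is which. One lay 542 bp inside the gene on chromosome 2 at 79255968 and the other 14782 bp inside at 79270208 (build mm10, as for all positions). Both are within Itga4 and were assigned to no other gene.

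Itgal, the alpha chain of LFA-1, had 1 region, with a height of 21 in the IL-2 library and 4 in the control library. Its IL-2 height was close to the median of the table, with 50.1% of listed genes lower. The region lay 8036 bp upstream of the gene on chromosome 7 at 127288224. The table also assigned it to Gm17511, a pseudogene, and in the RefSeq table the position falls within Gm31897, a long noncoding RNA gene. A stronger region, of 42 in the IL-2 library and 6 in the control library, lay at 127278592, 17547 bp from the RefSeq bounds of Itgal. That one was assigned to Gm17511 and Sephs2 and not to Itgal.

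Itgae had 1 region of 18 in the IL-2 library and 7 in the control library, 3837 bp inside the gene on chromosome 11 at 73094432. Its control height was high for the table, with 4.76% of listed genes above it, and its IL-2 height was above that of 39.3% of them. The nearest other region, assigned to Camkk1 and 1200014J11Rik, had 55 in the IL-2 library and 4 in the control library and lay 42937 bp from Itgae.

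Itgax, the CD11c chain best known from dendritic cells and also found on some activated T cells, had 13 in the IL-2 library and 5 in the control library. The region lay 7680 bp inside the gene on chromosome 7 at 128137248. Itgav, whose protein pairs with several beta chains and binds matrix proteins and latent TGF-beta, had 12 in the IL-2 library and 4 in the control library at a region 179 bp inside the gene on chromosome 2 at 83724576. These are low IL-2 heights, above those of 11.3% and 5.92% of listed genes for Itgax and Itgav.

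Of the beta subunits, Itgb2 and Itgb1 had 1 region each and Itgb7 had none. Itgb2, the beta chain that LFA-1 and the CD11c integrin share, had 14 in the IL-2 library and 5 in the control library at 180 bp inside the gene, on chromosome 10 at 77530528. Itgb1, the beta chain of many matrix receptors, had 10 in the IL-2 library and 4 in the control library at 542 bp upstream of the gene, on chromosome 8 at 128685112. The IL-2 height of Itgb1 was near the lowest in the table, where 9 of 4934 genes were lower, 94 had the same height and the lowest was 9.

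Itgb7, the partner of both alpha 4 and CD103, was absent from the table. Intervals of the IL-2 library are numbered along the genome, with 0 breaks of that order among the 5703 regions, so gaps in the numbers show intervals left out of the table. The intervals on either side of Itgb7 carry consecutive numbers, so none was called between them. They lie on chromosome 15 at 102178400, assigned to Csad, and at 102460000, assigned to Amhr2, Pcbp2 and Prr13, which are 37594 bp and 226595 bp from Itgb7. Their heights were 22 in the IL-2 library and 4 in the control library at the Csad region, and 28 in the IL-2 library and 4 in the control library at the other. No height is given for Itgb7 itself, so its signal below the calling level is unknown.

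Set out by heterodimer, both chains of LFA-1, of the CD11c integrin and of alpha 4 beta 1 had a region. In the IL-2 library LFA-1 joins Itgal at 21 with Itgb2 at 14, the CD11c integrin joins Itgax at 13 with Itgb2 at 14, and the alpha 4 beta 1 integrin joins Itga4 at a mean of 27 with Itgb1 at 10. Alpha E beta 7 and alpha 4 beta 7 each join a gene with a region to Itgb7 with none.

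**Figure D2:**
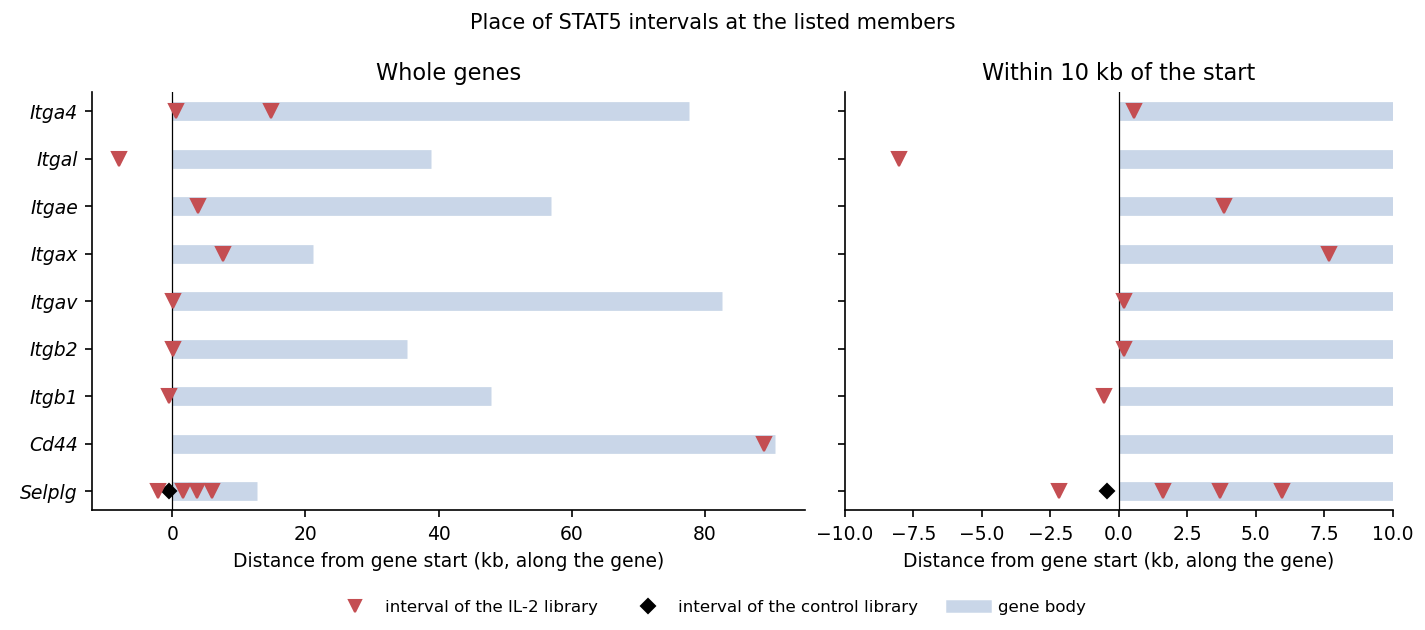
Place of each interval along the listed members, as the distance from the gene start in kb in the direction of transcription, for whole genes (left) and within 10 kb of the start (right). Red triangles are intervals of the IL-2 library, the black diamond is the interval of the control library at Selplg, and pale bars are gene bodies. Itgav, Itgb2, Itgb1 and Itga4 have an interval of the IL-2 library within 1 kb of the start, as Selplg has of the control library, and that of Cd44 lies near the gene's end.

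Of the 13 member regions 10 lay inside the gene and 3 upstream, with 0 downstream. Over all pairs of a gene and a region in the table, 50.0% lay inside the gene, 29.7% upstream and 20.3% downstream. Counting the intervals of the IL-2 library and the starts in the table, 4 of 13 regions (30.8%) lay within 1 kb of the member's own start, at Itga4, Itgav, Itgb1 and Itgb2. By the RefSeq starts described with Selplg, the 4 were Itga4, Itgb1, Itgb2 and Selplg. Over all 8337 pairs of a gene and a region in the table the share was 22.0%. The 3 members whose single region lay within 1 kb had IL-2 heights of 14, 12 and 10. The median was 16 over the 1120 genes whose single region lay there (interquartile range 13 to 25). The 4 members with a single region elsewhere had 45, 21, 18 and 13, and the 2172 such genes a median of 19 (14 to 31).

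The bases just before the start of Itga4, Itgav and Itgb1, as the table gives it, are shown because a region lay within 1 kb of it. RefSeq promoter windows of GRCm38.p6, the mm10 build, were at hand for these 3 genes. By the RefSeq bound described with Selplg, the Itgav window lies inside the gene and the Itgav region 2273 bp inside it. Each run holds the 250 bases before the start in the table, on the plus strand. Capitals mark TTCC or its complement GGAA, which contain the TTC or GAA arm of a STAT site and are also the core that Ets factors read.

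Itga4, chr2:79255176-79255425: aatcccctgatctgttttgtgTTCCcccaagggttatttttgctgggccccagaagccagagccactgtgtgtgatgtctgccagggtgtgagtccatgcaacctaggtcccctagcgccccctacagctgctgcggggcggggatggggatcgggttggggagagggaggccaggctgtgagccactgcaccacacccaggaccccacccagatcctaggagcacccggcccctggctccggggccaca
Itgav, chr2:83724147-83724396: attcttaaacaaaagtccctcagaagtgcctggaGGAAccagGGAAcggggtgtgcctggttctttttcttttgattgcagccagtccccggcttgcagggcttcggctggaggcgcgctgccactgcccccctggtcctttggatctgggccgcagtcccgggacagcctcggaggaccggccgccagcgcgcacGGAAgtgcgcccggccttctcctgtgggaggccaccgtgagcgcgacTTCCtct
Itgb1, chr8:128685404-128685653: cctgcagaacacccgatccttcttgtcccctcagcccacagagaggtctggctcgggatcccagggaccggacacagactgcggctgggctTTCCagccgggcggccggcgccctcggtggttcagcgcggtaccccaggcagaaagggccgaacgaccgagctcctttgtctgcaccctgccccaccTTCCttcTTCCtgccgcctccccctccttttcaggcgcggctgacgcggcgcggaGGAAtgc

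The region positions fall outside these windows, by 543 bp for Itga4, 180 bp for Itgav and 292 bp for Itgb1, and the widths of the intervals are not in the table. None of the 3 windows holds TTCNNNGAA on either strand, nor do those of Itgax, Itgb7 and Cd44, the other members with a RefSeq promoter window. By its RefSeq bound, Itgb7 too has its window inside the gene. Of 32851 windows of the same length, 7.02% hold it. TTCC or GGAA occurred 1 time in the Itga4 window, 4 times in that of Itgav and 4 times in that of Itgb1, and 93.4% of all windows hold at least 1. The windows are rich in G and C, at 64.0% for Itga4, 64.4% for Itgav and 68.0% for Itgb1, where the upper quartile of all windows was 61.2%. These letters describe the windows, not binding sites.

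Cd44, whose product binds hyaluronan and stays high on T cells that have met antigen, had 1 region. Its height was 45 in the IL-2 library and 4 in the control library, and 86.8% of listed genes had a lower IL-2 height. The region lay on chromosome 2 at 102812816, deep in the gene, 88849 bp from the start and 1675 bp before the end of a gene of 90524 bp. No other listed gene shared it. The next region on the side of the gene end was assigned to Slc1a2, at 77989 bp from Cd44. On the side of the start, 2 intervals numbered between Cd44 and the next listed gene, Abtb2, lay near no listed gene.

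Selplg had the most regions of the members and the highest mean in the IL-2 library. PSGL-1 carries sugars that P-selectin binds, which lets T cells roll on inflamed vessels. The mean over its 4 regions was 47 in the IL-2 library and 7.25 in the control library, and the highest peak was 96. At least 4 regions were found at 8.25% of listed genes. In the IL-2 library 88.1% of listed genes had a lower mean, and in the control library 4.66% had a higher one.

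A control interval was called near Selplg, as near 0.243% of the table's genes (12 of 4934), and near none of the other 8 listed members. It lay on chromosome 5 at 113830928, 427 bp upstream of the start the table gives. The 4 intervals of the IL-2 library lay at 113824544, 113826800 and 113828880, which are 5957, 3701 and 1621 bp inside the gene, and at 113832672, 2171 bp upstream. They span 8128 bp. The table counts 5 intervals near Selplg as 4 regions, and 3 near its neighbour Coro1c as 2. The intervals that both genes have are the control one and the upstream one of the IL-2 library, 1744 bp apart, so these were counted as 1 region.

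The heights at Coro1c, which encodes an actin-binding coronin, narrow those at Selplg. Coro1c had 2 regions with a mean of 54 in the IL-2 library and 9 in the control library, and a highest peak of 96, so its regions had 96 and 12 in the IL-2 library and a sum of 18 in the control library. The highest peak of Selplg was also 96, a value that 4 of 4934 genes had. If the shared upstream region held this peak, the 3 regions inside Selplg summed to 92 in the IL-2 library, a mean of 30.7. The same means would also arise if the shared region had 12 and a different region of each gene reached 96. In the control library the 4 regions of Selplg summed to 29. The control height of the shared region is not determined. Among genes with 1 region, those with a control interval had control heights from 11 to 40 (5 genes), and those without one had 0 to 13 (3287 genes).

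The upstream place depends on the gene model. The table starts Selplg 2027 bp short of the bound that RefSeq gives in GRCm38.p6. Against the RefSeq bound the upstream interval of the IL-2 library lay 144 bp before the gene and the control interval 1600 bp inside it. The RefSeq bound of Itgav also lay further out, by 2094 bp, which puts its region 2273 bp inside the gene. For the other 7 listed members the starts differed by at most 121 bp.

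**Figure D3:**
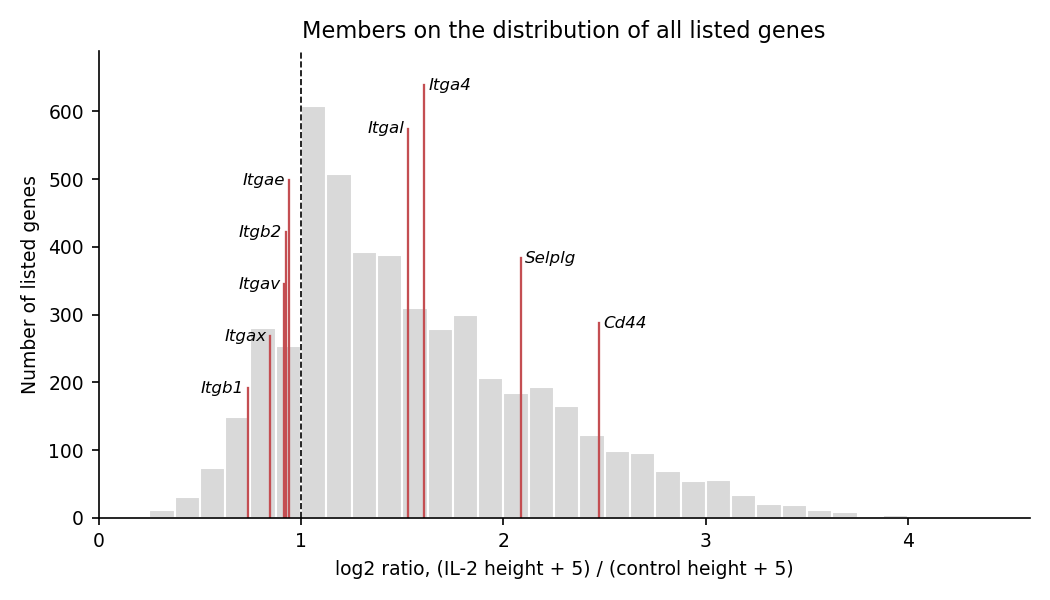
Histogram of the log2 ratio of IL-2 over control height, with 5 added to each, over all 4934 listed genes, with the 9 listed members as red lines whose length has no meaning. The dashed line marks a ratio of 2, with Itgb1, Itgax, Itgav, Itgb2 and Itgae below it and Itgal, Itga4, Selplg and Cd44 above. With both libraries scaled to equal medians the 5 genes below the line had negative log2 ratios.

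IL-2 was set over control after adding a pseudocount of 5 to both heights, and the ratio is given on the log2 scale. The ratio was at least 2 for 4 of the 9 listed members, against 83.8% of all listed genes. The 4 were Cd44 (log2 ratio 2.47), Selplg (2.09), Itga4 (1.61) and Itgal (1.53). The other 5 were below that size, at 0.94 for Itgae, 0.93 for Itgb2, 0.92 for Itgav, 0.85 for Itgax and 0.74 for Itgb1. The median over the 9 members was a log2 ratio of 0.94, beside 1.42 over all listed genes. With no replicates, neighbours in this order cannot be told apart by their spread.

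Genes with 1 region carry no averaging, and among them 2 of 7 members, Cd44 and Itgal, had a ratio of at least 2, beside 79.8% of 3292 genes. Of the integrin genes alone, with any number of regions, 2 of 7 had such a ratio, Itga4 and Itgal, beside 83.8% of all listed genes. The ratio of Cd44 was above that of 89.9% of listed genes and that of Selplg above 79.7%. Itgb1 was above 4.48% of them, Itgax above 9.12%, Itgav above 12.2%, Itgb2 above 13.7% and Itgae above 15.3%. The sources used here do not say how the libraries were scaled. Scaling both to the same median shifted the median log2 ratio of all genes by -1.28 and left Cd44, Selplg, Itga4 and Itgal higher with IL-2 and the other 5 members higher in control, where 2898 of all 4934 genes were higher with IL-2. With a pseudocount of 1 instead of 5, 9 of the 9 had a ratio of at least 2, as did 96.7% of all listed genes. A ratio of at least 1.5 was reached by 9 of 9, beside 98.3% of all listed genes, and one of at least 4 by 2 of 9, Cd44 and Selplg, beside 23.1%.

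Around these members stand other genes of adhesion, and 32 of 90 such genes in 6 lists were in the table, beside 19.1% of all protein-coding genes. That share stands beside each count of listed genes given here by list. The lists, too, were chosen with earlier results of these data known. A ratio of at least 2 was found for 29 of the 32, beside 83.8% of all listed genes, and their median log2 ratio was 1.55. Across the whole integrin family, 9 of 18 alpha genes and 3 of 8 beta genes were listed. Of the alpha genes that are not members 4 of 13 were listed, with IL-2 heights from 22 to 33.33. Itga1, a collagen-binding chain of resident T cells, had 33.33 in the IL-2 library and 5 in the control library over 3 regions. All 3 were shared with neighbouring genes. The one 678 bp inside the gene had 10 in the IL-2 library and 6 in the control library. Itga6 had 27.75 in the IL-2 library and 5.75 in the control library over 4 regions, and Itga9 27.33 in the IL-2 library and 4.33 in the control library over 3. Of the other beta genes 1 of 5 was listed, Itgb3, with 23 in the IL-2 library and 5 in the control library.

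Genes that activate integrins or tie them to actin were listed for 15 of 30. Ratios of 2 or more were found for 12 of the 15, beside 83.8% of all listed genes. Rasgrp1, an exchange factor for Ras proteins downstream of the T cell receptor, had a mean of 75.5 in the IL-2 library and 5.5 in the control library. Of its 2 regions, that 99 bp upstream of the start on chromosome 2 at 117342976 had 140 in the IL-2 library and 8 in the control library. Cyth1, a regulator of LFA-1 adhesion, had 45.5 in the IL-2 library and 6 in the control library over 6 regions. Parvg, an actin-linked partner of integrin-linked kinase, had 38 in the IL-2 library and 7 in the control library.

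Of the integrin ligands 2 of 11 were listed, and both had a ratio of at least 2, as did 83.8% of all listed genes. Icam1, the ligand of LFA-1, had 56 in the IL-2 library and 7 in the control library at a region 56 bp upstream of its start on chromosome 9, shared with Mrpl4. That IL-2 height is above those of Itgal and Itgb2, which encode its receptor. Icam2 had 10 in the IL-2 library and 2 in the control library at a region shared with Ern1.

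Selectins and the enzymes that build their ligands were listed for 8 of 21. The 8 had a ratio of at least 2, as did 83.8% of all listed genes. Selp, which encodes P-selectin, the partner of PSGL-1 on vessels and platelets, had 88 in the IL-2 library and 6 in the control library at 1 region 20096 bp inside the gene. Gcnt1, which branches the O-linked sugars that PSGL-1 needs, had 39 in the IL-2 library and 7 in the control library at 8116 bp upstream. St3gal4, which adds sialic acid, had 38.5 in the IL-2 library and 5.5 in the control library over 4 regions. Its 4 regions were all assigned to neighbouring genes too. Of the CD44 partners and hyaluronan genes 2 of 10 were listed, the membrane-to-actin linkers Msn and Ezr. Msn had 18 in the IL-2 library and 3 in the control library, and Ezr had 15 in the IL-2 library and 5 in the control library. Both had a ratio of at least 2, as did 83.8% of all listed genes, and that of Ezr was exactly 2. After scaling to equal medians, 22 of the 32 other adhesion genes were higher with IL-2, beside 2898 of all 4934 genes.

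**Figure D4:**
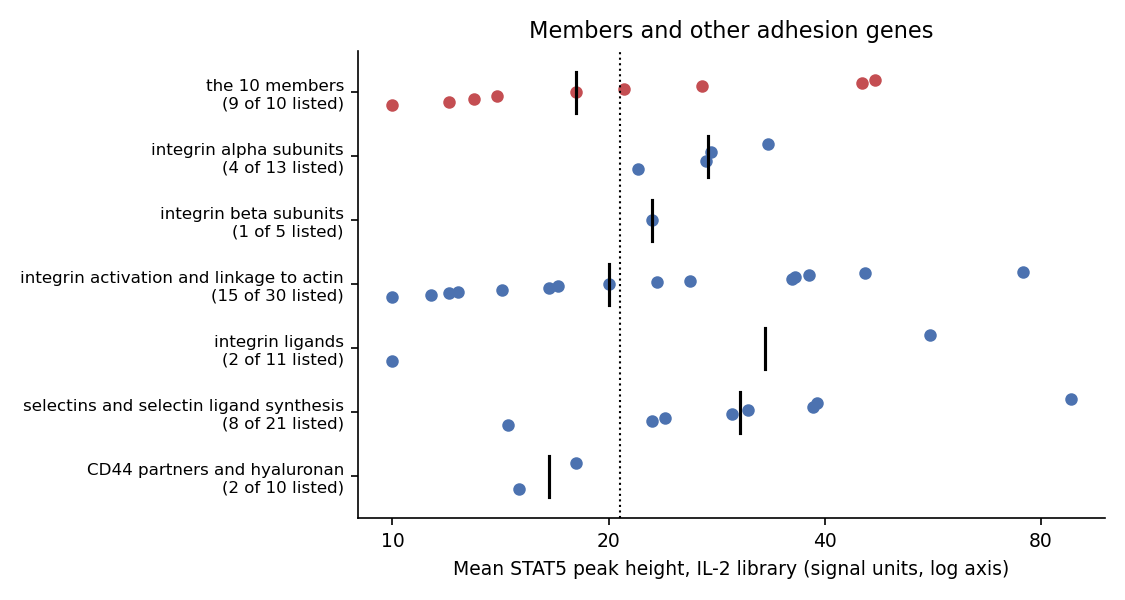
Mean STAT5 peak height in the IL-2 library, in signal units on a log axis, for the listed members (red) and for the listed genes of each other adhesion list (blue), with short black lines for medians and a dotted line for the median of all listed genes. The members run from 10 to 47, with Icam1 at 56, Rasgrp1 at 75.5 and Selp at 88 beyond them, and the other listed integrin genes lie between 22 and 33.33.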

How the data were processed

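STAT5 ChIP-seq libraries of IL-2-treated and control OT-I CD8 T cells, 1 each, were compared through the 1 table the authors deposited. Per the file headers, its signal columns hold a mean peak height per gene and library and a highest peak per gene. Reads were handled with BWA and build mm10, per the submitters' processing notes. The sources used here do not give the peak caller, the scaling of the libraries or their depth.

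The interval calls and the interval and region counts, deposited by the authors, are other values read as they stand. Interval positions were computed from gene start and distance. Single heights were solved from gene means where these fix them, a step tested on simulated data. The simulated means were plain averages of whole-number heights, so the test checks the algebra and not whether the deposited means are such averages. Of the 8350 pairs of a gene and an interval, 97.2% lay in the gene or its 10 kb flanks. Scaling multiplied both libraries to a common median of 12.875. Gene identifiers were matched to RefSeq GRCm38.p6 for 4799 of 4934 genes and 10 of 10 members. Promoters were found for 6 of the 10. Columns of other samples numbered 0. Work was done in Python 3.11.15 with pandas 2.3.3 and numpy 2.4.6.

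The members, gene lists and size rules were chosen with earlier results of these data known. Named genes were all members and their neighbours in shared regions, and from each adhesion list the 3 listed genes with the highest IL-2 mean. Selplg, the member with the highest IL-2 mean, was also matched to the listed gene nearest in both heights. Alternatives were pseudocounts of 1 and 10, ratios of 1.5 and 4, scaling, the highest peak and a window of 5 kb.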

Additional observations from a re-analysis of the deposited data

How the results depend on the processing

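No paired analysis was possible because there was a single library of each kind. The count of members at or above a ratio of 2, which was 4, became 9 with a pseudocount of 1 or a ratio of 1.5, 2 with a ratio of 4, and 1 with both libraries scaled to equal medians. The shares of all listed genes were 96.7% with that pseudocount, 98.3% at 1.5, 23.1% at 4 and 11.9% with scaling. In the report's setting the share was 83.8%, so the whole table moved with these choices. With a pseudocount of 10, 4 of 9 members reached a ratio of 2, beside 56.4% of all listed genes. So did 22 of 32 other adhesion genes. The median log2 ratio of the members, 0.94, became 1.38 with a pseudocount of 1, 0.72 with 10 and -0.30 with scaling. Scaling also gave log2 ratios of -0.51 for Itgae, -0.30 for Itgav, -0.45 for Itgax, -0.45 for Itgb1 and -0.39 for Itgb2. Equal medians take out a difference common to all genes, so they do not show which sign is right. Of the other adhesion genes, 29 of 32 reached a ratio of 2 and 7 of 32 a ratio of 4 (23.1% of all listed genes). With scaling, 2 of 32 reached a ratio of 2 (11.9% of all listed genes). Of the 13 member regions, 4 lay within 1 kb of a start and 8 within 5 kb, beside 22.0% and 40.5% of all pairs of a gene and a region. In settings added after seeing the data, the median log2 ratio was 0.93 without Selplg and 0.93 for members with 1 region, of which 2 had a ratio of at least 2. Using the highest peak in place of the IL-2 mean, 4 of 9 members had that ratio, beside 85.5% of all listed genes. The depth of the libraries is unknown, so no counting error can be given.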

Other observations

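Among the 188 other listed genes with 4 regions, that with heights nearest to Selplg on the log2 scale over the 2 libraries was Eps15l1. It had 47.75 in the IL-2 library and 7.75 in the control library, and a highest peak of 121.

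Itgax lies beside Itgam, which encodes the alpha chain of Mac-1 and was not in the table, and the nearest regions on both sides of Itgax were 252630 bp and 87967 bp away. The intervals that flank it carry consecutive numbers, so none was called at Itgam. The stronger of these neighbours, assigned to Armc5, Tgfb1i1 and 9130023H24Rik, had 55 in the IL-2 library and 3 in the control library. The region of Itgb2 also stood alone, with the nearest called intervals 987129 bp and 497684 bp from the gene.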
